A study of Mus musculus with 6 samples.

Results

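The clustered Hox genes were followed across 3 shRNA lines of B16-F1, a mouse melanoma cell line of C57BL/6J origin that grows in culture. Members were all genes of the HoxA, HoxB, HoxC and HoxD clusters that had a probe set carrying a single Hox symbol in the platform annotation, each represented by its probe set with the highest mean signal over all arrays. The rule gave 33 genes, from 48 probe sets, out of 18193 genes with a single-symbol probe set, and it used no comparison between lines. Cluster genes without such a probe set were not analysed here. Another 3 probe sets carried 2 Hox symbols and were not used. All cells had been transduced with a lentivirus and stably expressed an shRNA, against GFP in the control line, against the histone variant macroH2A1 in one knockdown line and against macroH2A2 in the other. Each line was measured on 2 arrays, described as independent biological replicates, from total RNA of cells grown in DMEM with serum. The sources used here do not say whether a line was a pool or a single clone.

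Hox genes encode homeodomain transcription factors that give cells their position along the head-to-tail axis, and adult cells often keep part of the Hox pattern of the place they came from. Within a cluster the genes lie in the order of their paralogue numbers, with low-numbered (anterior) genes at one end and high-numbered (posterior) genes at the other. In cells that do not use them, the clusters are classical targets of Polycomb repression, in which PRC2 methylates histone H3 on lysine 27 and PRC1 ubiquitinates histone H2A, while Trithorax complexes keep active Hox genes on. MacroH2A1 and macroH2A2 are histone H2A variants with a large globular macrodomain, often found on silent chromatin, and macroH2A has been tied to the silencing of Hox genes. The question put to the arrays was therefore which Hox genes had signal in B16-F1 and whether the silent or the active ones differed between the lines.

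Array signals are MAS5 intensities in arbitrary units, with the same trimmed mean of 150 on each array as deposited. A gene with a mean signal above 30 over the 6 arrays is called active in what follows and any other gene dim; the limit is a convention for these intensities and not a detection call. The median signal was between 15.1 and 24.6, and in each line replicate 1 had the higher median. Macroh2a1, the targeted gene of the first knockdown line, read 1212.7 and 1262.4 under control shRNA, 444.2 and 319.1 under macroH2A1 shRNA and 1271.2 and 1170.5 under macroH2A2 shRNA. Its difference from control in the macroH2A1 shRNA line was -1.67 (SE 0.17) on the log2(signal + 16) scale, with a limma adjusted p of 0.123, of 0.0012 when the replicate number was a block, and of 0.0807 with the block and no filter on dim probe sets. Macroh2a2 read 6.1 and 7.5 under control shRNA, 3.5 and 2.0 under macroH2A1 shRNA and 11.9 and 8.3 under macroH2A2 shRNA. It was too dim to test and did not read lower in the macroH2A2 shRNA line, so the arrays did not check the label of that line. The term knockdown line below follows the shRNA label. All 10 melanocyte markers had a mean signal above 30, with Oca2, a melanosomal transporter, between 508.0 and 904.2. Markers of other cell types were mostly dim: 0 of 5 keratinocyte, 0 of 7 endothelial, 1 of 7 leukocyte and 2 of 9 fibroblast markers had a mean above 30, and the leukocyte marker Ptprc stayed between 0.3 and 3.3.

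The promoter sequences of genes with and without signal are shown side by side, because neighbours in a cluster differed in signal. RefSeq promoter windows of 300 bases, from 250 before to 50 after an annotated start (GRCm38.p6), were matched for 19 of the 33 genes, in 21 windows, and for all 7 genes with a mean signal above 30. In all, 5 stretches of 250 bases before the start are printed 5′ to 3′ along the gene's strand, with each CG in capitals. Hoxa9, Hoxa10 and Hoxd13 had signal, and Hoxa13 and Hoxd12 did not. The Hoxa10 window belongs to the annotated start nearer to Hoxa9.
Hoxa9, chr6:52227371-52227620, minus strand: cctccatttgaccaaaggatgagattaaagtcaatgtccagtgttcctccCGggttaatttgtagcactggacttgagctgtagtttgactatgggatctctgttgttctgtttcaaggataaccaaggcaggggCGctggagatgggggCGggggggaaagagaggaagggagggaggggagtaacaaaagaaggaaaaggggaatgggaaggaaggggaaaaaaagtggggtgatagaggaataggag
Hoxa10, chr6:52234940-52235189, minus strand: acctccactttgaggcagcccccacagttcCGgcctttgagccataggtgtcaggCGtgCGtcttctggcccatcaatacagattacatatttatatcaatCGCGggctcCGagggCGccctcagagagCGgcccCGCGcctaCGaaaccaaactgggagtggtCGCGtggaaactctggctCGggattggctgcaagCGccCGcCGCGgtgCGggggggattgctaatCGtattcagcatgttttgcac
Hoxa13, chr6:52260881-52261130, minus strand: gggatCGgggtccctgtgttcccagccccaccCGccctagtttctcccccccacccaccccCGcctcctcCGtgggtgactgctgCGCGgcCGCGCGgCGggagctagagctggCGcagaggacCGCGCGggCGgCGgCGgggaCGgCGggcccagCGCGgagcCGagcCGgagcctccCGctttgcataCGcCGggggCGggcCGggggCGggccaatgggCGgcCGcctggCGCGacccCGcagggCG
Hoxd13, chr2:74667975-74668224, plus strand: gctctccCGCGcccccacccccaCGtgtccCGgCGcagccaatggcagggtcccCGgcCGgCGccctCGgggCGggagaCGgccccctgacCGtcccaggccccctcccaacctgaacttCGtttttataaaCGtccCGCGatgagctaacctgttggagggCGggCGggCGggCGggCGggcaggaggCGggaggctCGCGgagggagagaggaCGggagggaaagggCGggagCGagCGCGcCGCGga
Hoxd12, chr2:74674763-74675012, plus strand: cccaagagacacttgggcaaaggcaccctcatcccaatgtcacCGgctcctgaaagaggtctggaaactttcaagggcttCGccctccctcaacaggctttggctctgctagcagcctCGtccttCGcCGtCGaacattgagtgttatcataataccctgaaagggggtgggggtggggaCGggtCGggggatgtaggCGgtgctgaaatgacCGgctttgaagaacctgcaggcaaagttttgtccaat
These stretches held 3 CG in Hoxa9, 20 in Hoxa10, 35 in Hoxa13, 31 in Hoxd13 and 10 in Hoxd12. In HoxA, the stretch with the fewest CG lay before the active Hoxa9 and the one with the most before the dim Hoxa13. In HoxD, the stretch of the active Hoxd13 held more CG than that of the dim Hoxd12. A link between CG count and signal was not tested. Over whole windows of 300 bases, the median was 20 CG (range 4 to 37) in the 8 windows of genes above 30, and 13 (range 4 to 45) in the 13 windows of the other matched genes. Over all 21 matched windows the median was 15 CG (range 4 to 45), against 7 over all 32851 RefSeq windows. The TATA box letters TATAAA, searched on both strands, were in 2 of 8 windows of genes above 30 (1 of Hoxa10 and the window of Hoxd13) and in 0 of 13 windows of the others, against 13.6% of all windows. TGATNNAT, the letters of a Hox and Pbx site, were in 0 of 8 and 3 of 13 windows (Hoxa2, Hoxb1 and 1 of Hoxd11), against 8.85% of all. GAGAG, the core letters of GAGA elements, were in 5 of 8 and 8 of 13 windows, against 62% of all. These are matches of letters and not sites shown to be bound.

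Signal was limited to part of HoxA and 2 genes of HoxD. A mean signal above 30 over the 6 arrays was reached by 7 of 33 Hox genes (21.2%), against 9877 of all 18193 genes (54.3%). Among listed homeobox genes outside the clusters it was reached by 13 of 74, so a low share was also seen there. In HoxA, on chromosome 6, 5 of 9 genes passed it: Hoxa3, Hoxa5, Hoxa9, Hoxa10 and Hoxa11. In HoxD, on chromosome 2, 2 of 8 genes passed it, Hoxd3 and Hoxd13. No gene passed it in HoxB, on chromosome 11 (0 of 9), or in HoxC, on chromosome 15 (0 of 7). The highest mean was 14.5 in HoxB and 15.6 in HoxC, and the highest signal on any single array was 22.6 and 27.7.

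The active HoxA genes were not in one unbroken run. Going from the anterior end, Hoxa2 was below the limit, Hoxa3 above, Hoxa4 far below, Hoxa5 above, Hoxa7 just below, Hoxa9, Hoxa10 and Hoxa11 above, and Hoxa13 far below. Hoxa4 read between 0.6 and 6.7, and Hoxa13, the last gene of the cluster, between 1.3 and 8.6. In HoxD, Hoxd13 at the posterior end had signal while its neighbours Hoxd12, Hoxd11, Hoxd10 and Hoxd9 did not, and Hoxd3 was just above the limit. The 6 dim HoxD genes stayed at or below 17 on every array. A probe set without signal can also be a probe set that hybridises poorly, and 22 members were measured by 1 probe set alone.

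**Figure D1:**
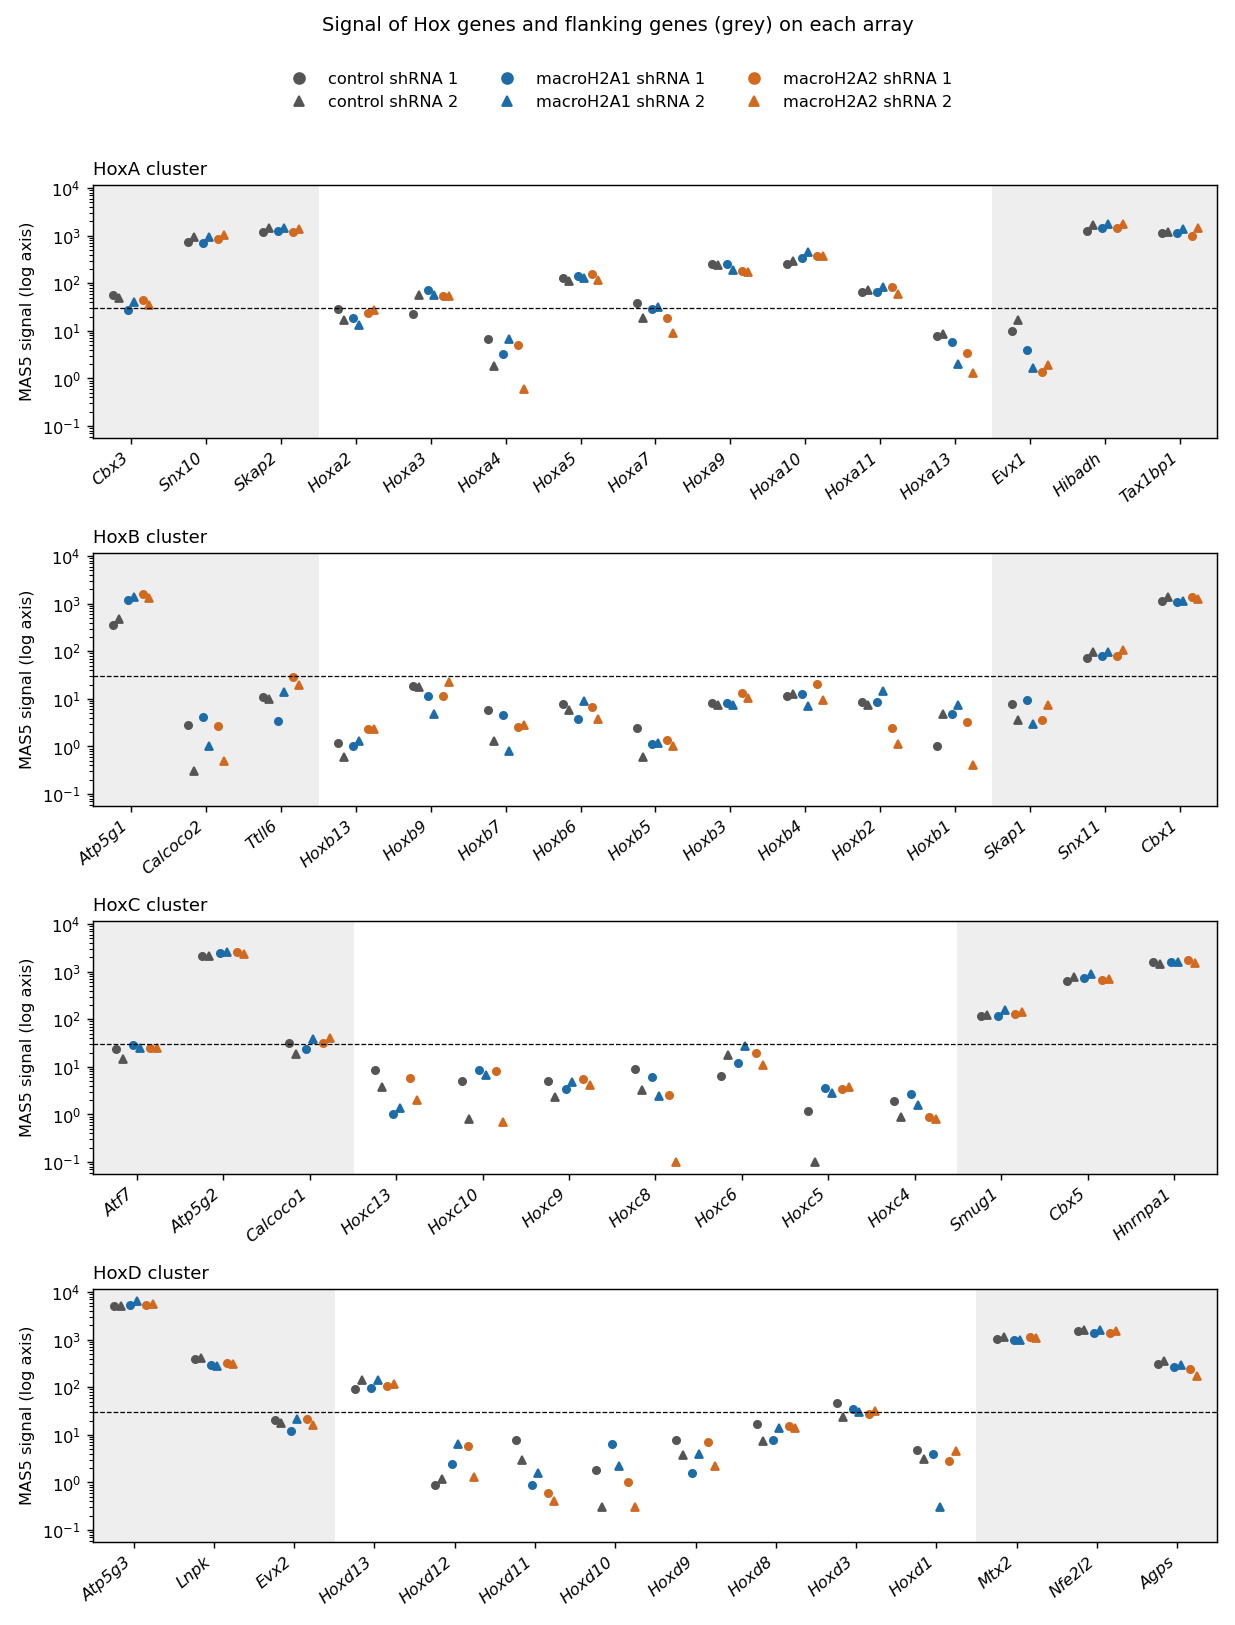
MAS5 signal (log axis, arbitrary units) of each Hox gene and, on grey, of the 3 nearest measured genes on each side, in chromosome order, 1 panel per cluster. Colours are shRNA lines, circles replicate 1 and triangles replicate 2, and the dashed line is a signal of 30; all HoxB and HoxC points lie below it, while 5 HoxA and 2 HoxD genes have means above it.

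Genes just outside the clusters had signal more often. Of the 24 nearest measured protein-coding genes, 3 on each side of each cluster, 18 (75%) had a mean above 30, among them 5 of 6 around HoxA, 3 of 6 around HoxB, 5 of 6 around HoxC and 5 of 6 around HoxD. The 6 dim ones were Evx1, Evx2, Ttll6, Calcoco2, Skap1 and Atf7. Evx1 and Evx2 are homeobox genes that adjoin the posterior ends of HoxA and HoxD. Around HoxB the nearest measured genes on both sides, Ttll6 and Skap1, were dim, as were Evx1 beside HoxA and Evx2 beside HoxD. Farther out, Hibadh, a mitochondrial enzyme of valine breakdown next to Evx1, read 1273.9 to 1749.6, and Hnrnpa1, an RNA-binding protein near HoxC, read 1445.6 to 1770.4.

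The posterior HoxA genes Hoxa9, Hoxa10 and Hoxa11 belong to the group that patterns limbs and the urogenital tract, and Hoxa9 and Hoxa10 also act in blood progenitors. Hoxa10 read 259.5 and 290.0 under control shRNA, 332.3 and 449.3 under macroH2A1 shRNA and 369.9 and 369.3 under macroH2A2 shRNA. All 4 knockdown arrays were above both control arrays, and the knockdown lines overlapped each other. Hoxa9 read 253.1 and 242.6 under control shRNA, 259.0 and 191.1 under macroH2A1 shRNA and 176.7 and 176.1 under macroH2A2 shRNA. Both macroH2A2 shRNA arrays were below all other arrays, while the macroH2A1 shRNA arrays lay on either side of the control. Hoxa11 read 64.9 and 72.7 under control shRNA, 65.4 and 81.4 under macroH2A1 shRNA and 82.6 and 58.5 under macroH2A2 shRNA, and all 3 lines overlapped.

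Among the more anterior HoxA genes, Hoxa5, which patterns the cervical and thoracic skeleton and the lung, read 126.0 and 111.9 under control shRNA, 144.3 and 126.2 under macroH2A1 shRNA and 153.3 and 118.3 under macroH2A2 shRNA. The lower macroH2A1 shRNA array, at 126.2, was barely above the higher control array, at 126.0, and the macroH2A2 shRNA arrays overlapped it. Hoxa3, needed for the thymus and parathyroid glands, read 22.7 and 55.5 under control shRNA, 72.9 and 56.6 under macroH2A1 shRNA and 53.7 and 53.4 under macroH2A2 shRNA. One control array stood low while the other was among the knockdown arrays, so this gene's differences depended on control replicate 1.

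In HoxD, Hoxd13, which shapes digits and is the last gene of its cluster, read 93.3 and 143.3 under control shRNA, 97.2 and 140.0 under macroH2A1 shRNA and 106.2 and 114.1 under macroH2A2 shRNA. Replicate 1 was the lower array in every line, and the lines overlapped. Hoxd3, an anterior gene that patterns the neck vertebrae, read 47.4 and 24.1 under control shRNA, 34.6 and 30.2 under macroH2A1 shRNA and 27.8 and 31.2 under macroH2A2 shRNA. It was the member nearest above the limit, with a mean of 32.55, and had arrays on both sides of it.

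**Figure D2:**
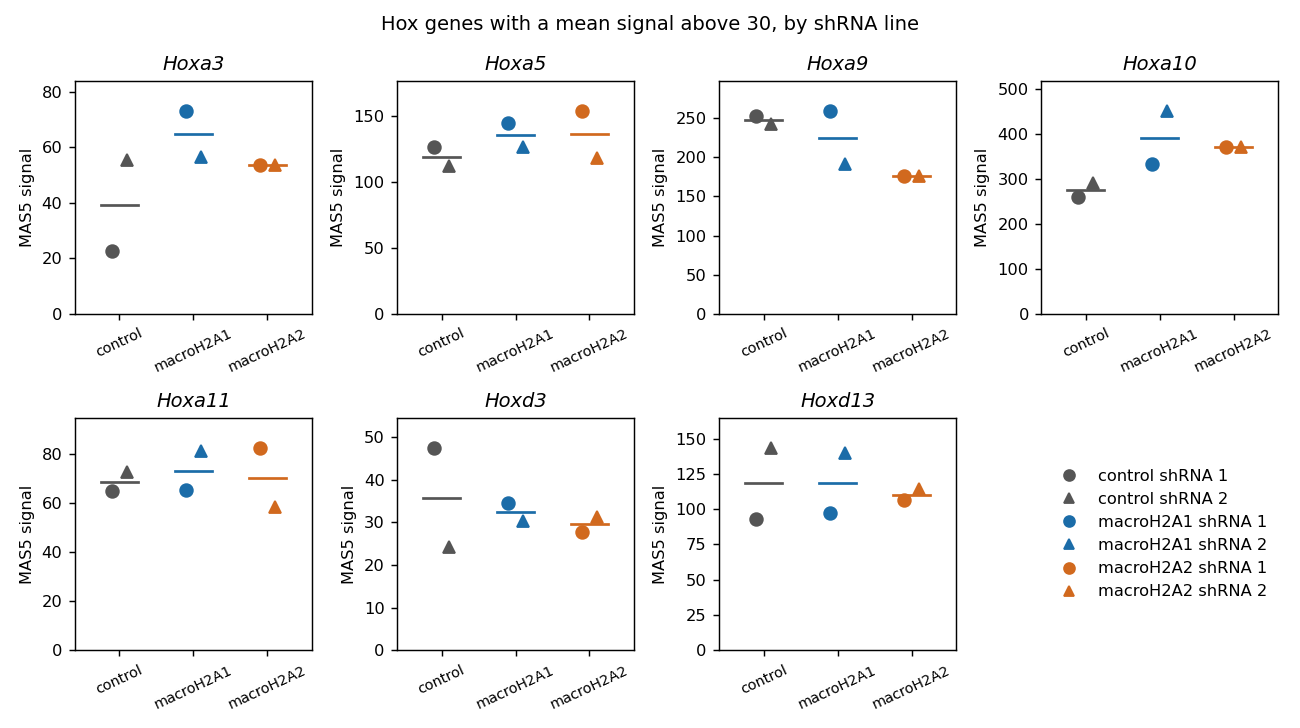
MAS5 signal (linear axis from 0, arbitrary units) of the 7 Hox genes with a mean above 30, 1 panel per gene. Points are the 2 arrays of each shRNA line (circle replicate 1, triangle replicate 2) and lines their means; Hoxa10 is higher on all 4 knockdown arrays than on both control arrays, and Hoxa9 is lowest on the macroH2A2 shRNA arrays.

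The 3 genes nearest below the limit were Hoxa7, Hoxa2 and Hoxc6. Hoxa7, a trunk gene, read 38.3 and 18.6 under control shRNA, 28.8 and 31.4 under macroH2A1 shRNA and 18.4 and 8.8 under macroH2A2 shRNA, and was the only dim member with any array above 30. Hoxa2, which patterns the hindbrain and second branchial arch, read 29.3 and 17.2, then 18.5 and 13.4, then 23.5 and 27.1 in the same order of lines. Hoxc6, a thoracic gene, read 6.5 and 17.4, then 11.8 and 27.7, then 19.4 and 10.8. Hoxa7 and Hoxa2 had means of 24.05 and 21.5. The limit itself therefore falls between Hoxa7 and Hoxd3, both of which had arrays on each side of it.

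Other probe sets of the same genes gave a mixed picture. Of the 7 genes above the limit, 5 had a further probe set, and its mean was also above 30 for Hoxa3 (38.1), Hoxa5 (71.6) and Hoxa9 (43.9), but not for Hoxa10 (14.9) or Hoxd13 (4.05). Hoxa3 had another 2 probe sets, with means of 14.4 and 7.75, so 2 of its 4 were above the limit. Hoxa11 and Hoxd3 had 1 probe set. The probe set names of Hoxa3 and Hoxa5 end in _s_at and _x_at, the platform's marks for probes that can match several transcripts or cross-hybridise.

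The first comparison, macroH2A1 shRNA minus control, asked whether lowering macroH2A1 moved silent or active Hox genes. The tested member whose difference stood furthest from 0 in units of its error was Hoxa10, 0.47 higher on the log2(signal + 16) scale (SE 0.18, 95% interval 0.056 to 0.89, limma adjusted p = 1). Its replicate 1 arrays differed by 0.34 and its replicate 2 arrays by 0.60. Hoxa3 read 0.61 higher (SE 0.31), but 1.2 between the replicate 1 arrays and 0.022 between the replicate 2 arrays, and 0.17 with control replicate 1 left out. Other probe sets of these genes gave other values: the dim one of Hoxa10 gave -0.15 (SE 0.41), and the second active one of Hoxa3 gave -0.06 (SE 0.31), while the dim ones of Hoxa3 gave 0.36 (SE 0.28) and 0.20 (SE 0.25). The differences of Hoxa5 (0.16), Hoxa11 (0.07), Hoxd13 (0.01), Hoxd3 (-0.06) and Hoxa9 (-0.14) were each smaller than their SE, which were 0.18 to 0.272. These genes' 95% intervals still admitted differences of a size to note: -0.565 to 0.585 for Hoxd13 and -0.29 to 0.62 for Hoxa5. Over all 7 active members the median difference was 0.07, with 5 higher and 2 lower. It was -0.01 over all 19355 probe sets above 30.

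Among the dim members, 6 passed the filter on low signal (a mean of at least 10.4) and were tested, and none passed the threshold. Hoxb9, a posterior trunk gene, read 18.6 and 18.0 in the control line and 11.5 and 4.8 in the macroH2A1 shRNA line, a difference of -0.52 (SE 0.29). Hoxc6 read 0.35 higher (SE 0.33) and Hoxa2 0.28 lower, with a log2 difference of -0.28 (SE 0.26). The other probe sets of Hoxc6, with means of 15.07 and 12.62, gave -0.45 (SE 0.34) and 0.01 (SE 0.26), so its direction depended on the probe set. The other 20 dim members, below the filter, had fitted differences between -0.35 and 0.33 and were not tested. Over all 26 members at or below 30 the median difference was -0.0061, with 13 higher and 13 lower, and over all 25682 probe sets at or below 30 it was -0.04.

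The limma fit called 0 of 13 tested Hox genes at an adjusted p under 0.05, and 0% of all 27025 tested probe sets. With the replicate number as a block it called 0 of 13 Hox genes (lowest adjusted p 0.358) and 0.192% of all probe sets. At an unadjusted p under 0.05, 1 Hox gene was higher, against 2.11% of all tested probe sets, and 0 were lower, against 2.29% (4.4% in either direction), and the block gave 2 higher, Hoxa10 and Hoxa3, against 8.84%. The arrays of both lines did not overlap for 3 of the 7 active genes, Hoxa3, Hoxa5 and Hoxa10, all higher in the knockdown, against 30.7% of all probe sets above 30. Among the 26 dim genes 6 were higher and 4 lower without overlap, against 25.4% of all probe sets at or below 30. With 2 arrays against 2, an exact two-sided permutation test cannot give a p below 0.333, so no such test was used. In cell lines measured as bulk RNA, fewer cells with a transcript and less transcript per cell cannot be told apart.

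The comparison of macroH2A2 shRNA with control shared its control arrays with the first. Hoxa9 read 0.46 lower, a log2 difference of -0.46 (SE 0.18, 95% interval -0.88 to -0.029, limma adjusted p = 1), and the replicate sets gave -0.48 and -0.43. Its second probe set had a difference of -0.44 (SE 0.35), measured on the same arrays. Hoxa10 read 0.41 higher (SE 0.18, 95% interval -0.0057 to 0.82, limma adjusted p = 1), and its second, dim probe set -0.46 (SE 0.41). By their brightest probe sets, these neighbouring HoxA genes differed from control in opposite directions, neither past the threshold. The dim probe set of Hoxa10 instead read lower, the direction of both Hoxa9 probe sets. Hoxa3 read 0.40 higher (SE 0.31), and -0.040 with control replicate 1 left out, and its second active probe set gave 0.09 (SE 0.31). Hoxa5 (0.16), Hoxa11 (0.02), Hoxd13 (-0.07) and Hoxd3 (-0.15) differed by less than their SE.

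Of the dim tested members, Hoxa7 had the furthest value, -0.57 (SE 0.30, limma adjusted p = 1), with both macroH2A2 shRNA arrays below both control arrays. The higher macroH2A2 shRNA array, at 18.4, was barely below the lower control array, at 18.6. The others, Hoxa2, Hoxb4, Hoxb9, Hoxc6 and Hoxd8, had differences from -0.08 to 0.17. The limma fit called 0 of 13 tested Hox genes and 0% of all tested probe sets, and with the block 0 of 13 (lowest adjusted p 0.418) and 0.144%. At an unadjusted p under 0.05 there was 1 lower Hox gene, Hoxa9, against 2.52% of all tested probe sets (3.98% in either direction). The block gave 1 higher, Hoxa10, and 2 lower, Hoxa9 and Hoxa7, against 8.98%. The arrays did not overlap for 2 of 7 active genes, Hoxa10 and Hoxa9, against 31.4%, and for 9 of 26 dim genes (4 higher and 5 lower), against 27.1%. The median difference was 0.02 over the active and -0.04 over the dim members, and -0.03 over all tested probe sets.

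The direct comparison of both knockdown lines, which uses no control array, gave 0 of 13 Hox genes called and 0% of all tested probe sets, and with the block 0 of 13 (lowest adjusted p 0.631) and 0.0037%. Hoxa7 read -0.66 in the macroH2A2 shRNA line relative to the macroH2A1 shRNA line (SE 0.30, limma adjusted p = 1), and Hoxa9 -0.31 (SE 0.18). By their brightest probe sets, all 7 active genes had a difference below 0, from -0.31 to -0.0018, and only that of Hoxa9 exceeded its SE. Of all 19355 probe sets above 30, 9844 were below 0. Only 2 of the 7 genes kept their sign in both replicate sets. The second active probe set of Hoxa3 gave 0.15 (SE 0.31), while the second ones of Hoxa5, Hoxa9, Hoxa10 and Hoxd13 were below 0. The difference of Hoxa5, -0.0018, turned above 0 under quantile normalization (0.0125) and under median centring (0.0063). Hoxb9 (0.44) and Hoxa2 (0.37) read higher among the dim genes. At an unadjusted p under 0.05 there were 0 Hox genes, against 2.73%, and 1 with the block, Hoxa7, against 6.33%. The arrays did not overlap for 2 of 7 active members, against 29.1%, and for 11 of 26 dim members, against 29.3%.

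**Figure D3:**
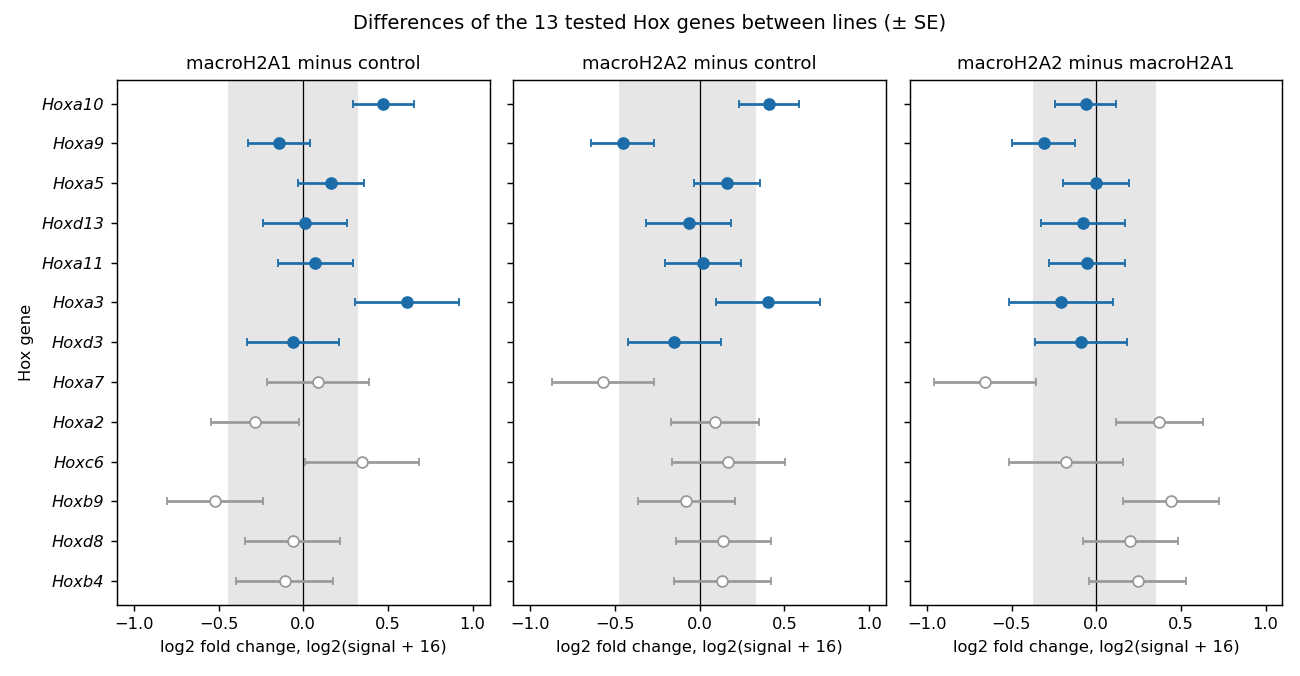
Log2 fold change, on the log2(signal + 16) scale, of the 13 tested Hox genes in the 3 comparisons, with bars of ± 1 SE from the limma fit of 6 arrays; filled points have a mean signal above 30 and open points below. The grey band spans the 5th to 95th percentile of all tested probe sets, which holds 9, 10 and 10 of the 13 Hox genes.

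The spread of all genes gives a scale for these values. In the macroH2A1 shRNA comparison, 9 of 13 tested Hox genes lay between the 5th and 95th percentile of all tested probe sets, which were -0.44 and 0.32. For macroH2A2 shRNA against control 10 of 13 lay between -0.47 and 0.32. Between the knockdown lines 10 of 13 lay between -0.37 and 0.35. By construction, 5% of tested probe sets lie below such a range and 5% above it, so a smaller share of Hox genes lay inside. Of all tested probe sets 71.6% had a mean above 30, against 7 of the 13 Hox genes. The SE of the tested dim Hox genes were 0.259 to 0.335. Each by its brightest probe set, the Hox genes outside were Hoxa10 and Hoxa3 (above) in both comparisons with control. Hoxc6 (above) and Hoxb9 (below) were also outside with macroH2A1 shRNA, and Hoxa7 (below) with macroH2A2 shRNA. Between the knockdown lines they were Hoxa7, Hoxa2 and Hoxb9.

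Differences within each replicate number showed how far single arrays carried them. The 7 active genes kept the same sign in both replicate sets in 4 cases with macroH2A1 shRNA, 3 with macroH2A2 shRNA and 2 between the knockdown lines. The 26 dim genes did so in 17, 15 and 15 cases. In the control line, 21 of 26 dim Hox genes read higher in replicate 1, as did 75.8% of all probe sets at or below 30, in the macroH2A1 shRNA line 12 of 26 and 59.8%, and in the macroH2A2 shRNA line 20 of 26 and 56.6%. The array's level thus moved with the dim genes' values in the control and macroH2A2 shRNA lines, but not in the macroH2A1 shRNA line. The part of the array's level in the dim genes' differences was not tested.

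**Figure D4:**
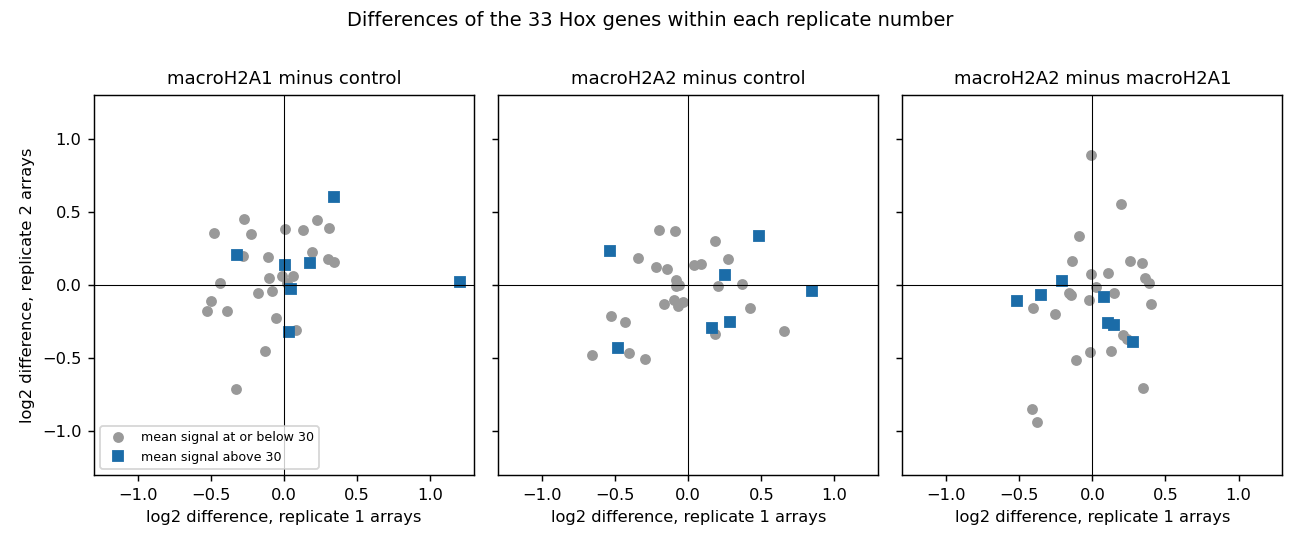
Log2 difference of each of the 33 Hox genes between the replicate 1 arrays (horizontal axis) and between the replicate 2 arrays (vertical axis), on the log2(signal + 16) scale, for the 3 comparisons. Blue squares are genes with a mean above 30 and grey circles the others; points at the lower left and upper right have the same sign in both, as 4, 3 and 2 of the 7 blue squares do.

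Hox antisense transcripts, which are not members, were read from probe sets of their own. Hoxa11os, transcribed from the strand opposite Hoxa11, read 113.5 and 180.9 under control shRNA, 113.3 and 92.2 under macroH2A1 shRNA and 71.5 and 98.7 under macroH2A2 shRNA. Its difference from control was -0.43 (SE 0.26) and -0.67 (SE 0.26, limma adjusted p = 1, and adjusted p = 0.318 with the block), and Hoxa11 itself differed by 0.07 and 0.02 in the same comparisons. A second probe set of Hoxa11os read only 0.1 to 2.6. Hoxd3os1, at the Hoxd3 locus, read 59.3 and 20.6, then 38.0 and 13, then 30.3 and 18.3, with replicate 1 higher in each line.

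Of the flanking genes, Atp5g1, which encodes a subunit of the mitochondrial ATP synthase and lies beside HoxB, read 357.2 and 481.5 under control shRNA, 1167.6 and 1396.2 under macroH2A1 shRNA and 1600.2 and 1337.7 under macroH2A2 shRNA. Its log2 differences of 1.59 and 1.78 (SE 0.18 each) had limma adjusted p of 0.174 and 0.15, and of 0.00282 and 0.00588 with the block. It was the only flanking gene called with the block, and it was not called with the block and no filter (adjusted p = 0.0962 and 0.129). Evx1, next to Hoxa13, read 9.7 and 16.6 under control shRNA, 3.9 and 1.7 under macroH2A1 shRNA and 1.4 and 1.9 under macroH2A2 shRNA, and was below the filter. Without the filter its differences of -0.63 and -0.71 had a limma adjusted p of 1, and of 0.575 and 0.515 with the block, a combination added after these values were seen. Hoxa13 beside it read 7.8 and 8.6, then 5.7 and 2.0, then 3.4 and 1.3, also below the filter.

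Hox proteins bind DNA with TALE homeodomain partners of the Pbx, Meis and Pknox families. Of the 8 measured, 5 had a mean above 30 (Pbx2, Pbx3, Meis1, Meis2 and Pknox1), and limma called 0 of 8 in any comparison, with or without the block. For this list and those below, the background was 0% of all tested probe sets without the block and at most 0.192% with it. Meis2 read 1338.4 and 891.6 under control shRNA, 1243.8 and 706.3 under macroH2A1 shRNA and 1478.3 and 792.8 under macroH2A2 shRNA, with replicate 1 the higher array in each. Pknox2, a dim gene, read 14.0 and 7.0 under control shRNA, 34.8 and 25.2 under macroH2A1 shRNA and 18.2 and 20.0 under macroH2A2 shRNA. Its difference with macroH2A1 shRNA was 0.80 (SE 0.26, limma adjusted p = 0.971, and 0.227 with the block). The list's median difference was -0.03 in both comparisons with control, as was that of all tested probe sets.

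The machinery of Hox repression had signal throughout. Of 29 measured Polycomb genes, 28 had a mean above 30, and 0 were called in any comparison with or without the block. Ezh2, the methyltransferase of PRC2, read 1694.4 and 1648.0 under control shRNA, 1786.3 and 1491.2 under macroH2A1 shRNA and 2044.5 and 1362.8 under macroH2A2 shRNA. Its log2 differences from control were -0.03 and -0.0013 (SE 0.19). Pcgf5, a subunit of a variant PRC1, read 131.8 and 141.3 under control shRNA, 75.3 and 91.3 under macroH2A1 shRNA and 120.1 and 137.0 under macroH2A2 shRNA, a difference of -0.62 with macroH2A1 shRNA (SE 0.19, limma adjusted p = 0.88, and 0.204 with the block). Jarid2, which helps bring PRC2 to its targets, read 454.0 and 278.2, then 467.9 and 367.8, then 271.0 and 226.8, a difference of -0.71 between the knockdown lines (SE 0.24, limma adjusted p = 1, and 0.315 with the block). The list's medians were 0.03 and 0.07 against control.

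All 13 measured Trithorax and H3K27 demethylase genes had a mean above 30, and 0 were called with or without the block. Kmt2a, the methyltransferase that maintains Hox expression, read 258.9 and 153.9 under control shRNA, 242.1 and 148.7 under macroH2A1 shRNA and 221.7 and 118.4 under macroH2A2 shRNA, again with replicate 1 higher. The list's median differences were 0.04 and 0.06. Genes that act above or beside the clusters were dim: 0 of 8 Cdx, Evx and ParaHox genes, which include the Cdx activators of trunk Hox genes, had a mean above 30, and Cdx2 read between 1.1 and 7.7. Of 16 genes of retinoid signalling, a known inducer of anterior Hox genes, 7 had a mean above 30. Of the 16, 9 passed the filter and were tested, and 0 of these 9 were called with or without the block. Cyp26b1, which breaks down retinoic acid, read 44.9 and 47.2 under control shRNA, 31.1 and 35.0 under macroH2A1 shRNA and 74.0 and 123.7 under macroH2A2 shRNA. None of the lines overlapped. Its difference was 0.85 between macroH2A2 shRNA and control (SE 0.25, limma adjusted p = 0.985, and 0.155 with the block) and 1.19 between the knockdown lines (SE 0.25, limma adjusted p = 1, and 0.157 with the block).

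Homeobox genes outside the clusters gave a further background. Of 74 measured, 13 had a mean above 30, among them Pax3, a neural crest and melanocyte lineage factor, at 1751.9 to 2333.4, and 25 passed the filter. The limma fit called 0 of 25 in every comparison with or without the block. Their median differences over all 74 were -0.03, 0.02 and -0.002 in the 3 comparisons. Among markers of other cell types, Pdgfra, a fibroblast gene, read 82.9 and 52.4 under control shRNA, 32.5 and 24.4 under macroH2A1 shRNA and 25.6 and 25.2 under macroH2A2 shRNA (limma adjusted p = 0.88 and 0.929 against control, and 0.133 and 0.105 with the block). Col1a2, a collagen gene and the other fibroblast marker with a mean above 30, went the other way, at 52.8 and 46.1, then 79.8 and 68.3, then 63.0 and 62.1 in the same order, with differences of 0.46 and 0.27 (SE 0.20, limma adjusted p = 1). The summed signal of the 9 fibroblast markers ranged from 124 to 200 in the control line, 125 to 157 in the macroH2A1 shRNA line and 112 to 120 in the macroH2A2 shRNA line, with Col1a1 between 1.5 and 17.0 on all arrays. Their part in the Hox values was not tested.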

How the data were processed

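RNA of 6 samples, 2 each from 3 shRNA lines, was hybridised to 1-colour Affymetrix arrays after 3' IVT labelling, per the labels' protocols. The authors deposited linear-scale intensities, and the submitters' processing notes name MAS5 without a version. All 6 arrays had a 2% trimmed mean of 150, so a change in total signal between lines would have been removed. Of 45037 probe sets other than the 64 controls, 34945 had 1 gene symbol, 932 had several and 9160 had none, and names were taken from single-symbol probe sets. For each gene, the single-symbol probe set of highest mean signal over the 6 arrays was used. Groups came from the labels. The arrays' number limits the precision, and correlations between arrays were 0.978 to 0.99, with 0 identical pairs.

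Signals were tested as log2(signal + 16), so fold changes understate those of dim probe sets. The 27025 probe sets with a mean at or above the 40th percentile, 10.4, entered 1 limma fit (limma 3.58.1, R 4.3.3, eBayes with a trend, 3 residual and 4.9 prior degrees of freedom), two-sided, with Benjamini-Hochberg adjusted p-values under 0.05 called over all of them. Values of genes below the filter, and medians that include them, came from the same fit without the filter. The script was checked on simulated data. Replicate 1 minus replicate 2 differences correlated between lines with r of 0.576, 0.372 and 0.415. The numbers, given in the labels, were therefore taken as pairing the arrays in an alternative fit with the number as a block. The main fit had no block. Unless the block is named, SE, intervals and adjusted p are from the fit without it. For Hoxa10 with macroH2A1 shRNA the SE was 0.16 with the block and 0.18 without. Alternatives were other pseudocounts (1 and 64), other filters, quantile normalization, median centring, the block, other probe sets, a limit of 60 and leaving out each array.

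The members, gene lists and limits were chosen with earlier results of these data known. Named were every Hox gene above a mean of 30, the 3 nearest below it, the targeted genes and, of each other list, up to 3 genes with the smallest p in a comparison; Hoxa4, Hoxa13, Hoxb9, the antisense transcripts, Ezh2, Kmt2a, Cdx2, Pax3, the marker genes and single flanking genes were chosen after their values were seen. Promoter windows are from RefSeq on GRCm38.p6; Hoxa4, Hoxb2, Hoxb3, Hoxb5, Hoxb6, Hoxb7, Hoxb9, Hoxb13, Hoxc5, Hoxc6, Hoxc8, Hoxc9, Hoxc10 and Hoxc13 had no entry.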

Additional observations from a re-analysis of the deposited data

How the results depend on the processing

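No Hox gene was called under any alternative tried, the replicate block and the fit without a filter included. Over all genes, the block called 52, 39 and 1 probe sets (for macroH2A1 shRNA, for macroH2A2 shRNA, each against control, and between the knockdown lines) in place of 0, and median centring called 3 in the first. Taking each gene's probe set with the lowest signal left 4 Hox genes above 30 in place of 7, and a limit of 60 left 5, without Hoxa3 and Hoxd3. A filter at the 60th percentile left Hoxd3 out. With macroH2A1 shRNA, the median difference of the 7 Hox genes above 30 was 0.07 under the settings used above. It was 0.14 under quantile normalization and 0.14 under median centring. With macroH2A2 shRNA, the median of the 26 others was -0.04 under the settings used above. It was -0.14 with a pseudocount of 1 and 0.035 under median centring. Signs turned under quantile normalization and median centring, respectively, for Hoxd3 with macroH2A1 shRNA (0.010 and 0.0056), Hoxd13 with macroH2A2 shRNA (0.026 and 0.0087) and Hoxa5 between the knockdown lines (0.0125 and 0.0063). The cause was not tested, but these values were all far smaller than their SE.

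Leaving out 1 array at a time gave the following ranges. With macroH2A1 shRNA, the median of the genes above 30 ran from 0.06 to 0.20, that of the dim genes from -0.10 to 0.07, Hoxa3 from 0.17 to 1.05, Hoxa9 from -0.35 to 0.06, Hoxa11 from -0.058 to 0.20, Hoxd3 from -0.39 to 0.27 and Hoxd13 from -0.26 to 0.28. With macroH2A2 shRNA, the median of the genes above 30 ran from -0.040 to 0.22, that of the dim genes from -0.10 to 0.047, Hoxa3 from -0.040 to 0.85, Hoxa5 from -0.0050 to 0.33, Hoxa11 from -0.19 to 0.22, Hoxd3 from -0.48 to 0.18 and Hoxd13 from -0.34 to 0.21. Between the knockdown lines, the median of the dim genes ran from -0.056 to 0.027, Hoxa5 from -0.17 to 0.17, Hoxa10 from -0.27 to 0.15, Hoxa11 from -0.26 to 0.15 and Hoxd13 from -0.31 to 0.16. Against control, and for its main probe set, Hoxa10 kept its direction under the 13 settings of scaling, pseudocount, filter, block and arrays, from 0.26 to 0.68 with macroH2A1 shRNA and from 0.33 to 0.49 with macroH2A2 shRNA, as did Hoxa9 with macroH2A2 shRNA, from -0.49 to -0.38. Among these settings, the filters, the block and leaving out an array of the other knockdown line cannot change a fitted difference. Only the remaining settings bear on direction. The other probe set of Hoxa10, which is dim, lay below 0 in both comparisons with control (-0.15 and -0.46). A line left with 1 array was assumed to vary like the others. Signal near background limits 20 Hox genes, which were not tested, and 2 arrays per line limit the rest.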
